A study of Homo sapiens with 8 samples.

Results

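The 37 genes described here encode the aminoacyl-tRNA synthetases, and their RNA was measured in uterine leiomyosarcoma cells with and without an inhibitor of the chromatin protein BRD9. They were found by gene symbol, which is the single-letter code of an amino acid followed by ARS and, where present, a 1 or a 2, together with EPRS1 and the phenylalanine genes FARSA, FARSB and FARS2. Of 60282 genes listed, 37 matched. A total of 20 encode enzymes of the cytosol, and 17, with names ending in 2, encode enzymes of the mitochondrion. All 37 passed the filter on low counts, which left 14073 genes to be tested. The cells were SK-UT-1, a widely used line of uterine leiomyosarcoma origin. They were given DMSO as vehicle or the compound TP-472, which inhibits BRD9 and BRD7, at 5 µM for 48 h, with 4 libraries per group. The cells of both groups are of this single line, carry no engineered change in the labels, and were grown in the same medium with serum. Library totals ran from 32574672 to 36634103 estimated counts in the vehicle group and from 36246277 to 38545464 in the TP-472 group. No label says that the libraries came from separate cultures, and the methods of the study speak of biological replicates for its experiments in general without naming these libraries, so p-values measure the spread between these libraries, which may be technical.

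Each synthetase recognizes its amino acid and the matching transfer RNAs and joins them in a reaction that consumes ATP, which gives the ribosome its charged tRNAs. Human cells have separate sets of enzymes for the cytosol and the mitochondrion, all encoded in the nucleus, although glycine (GARS1) and lysine (KARS1) are served in both places by 1 gene each. The enzymes fall into class I and class II by the fold of the catalytic domain, and several cytosolic enzymes join a multi-synthetase complex held together by scaffold proteins. Many cytosolic synthetase genes are targets of ATF4, the transcription factor of the amino acid response.

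Levels are given as TMM-scaled CPM, that is, counts relative to the size of the library, and were not divided by transcript length, so they are compared between libraries and not between genes. A gene was called when the adjusted p-value was under 0.05 and the fold change over 1.5. The p-values came from edgeR's quasi-likelihood F test with Benjamini-Hochberg adjustment over all genes tested, and differences are on the log2 scale of TP-472 over vehicle with a standard error (SE). In bulk RNA, fewer cells of a kind and less RNA per cell cannot be told apart.

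Vehicle replicate 3 stood apart from the other libraries. Its median Spearman correlation with the other vehicle libraries was 0.914, while the other vehicle libraries had 0.988, 0.988 and 0.989 and the TP-472 libraries 0.993 to 0.997. On the first principal component of all genes tested, which held 65.8% of the variance, it lay at -94.0, the other vehicle libraries between -36.4 and -13.5 and the TP-472 libraries between 36.99 and 43.4. The main results are therefore also given without it.

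Markers of smooth muscle, the tissue in which leiomyosarcoma arises, were present in part. ACTA2, the actin of smooth muscle, stood at 160 ± 16.7 CPM in vehicle and 109 ± 3.52 CPM in TP-472 libraries (mean ± SD, n = 4 each). CALD1, which encodes caldesmon, stood at 200 ± 15.3 and 192 ± 5.65 CPM. Of the 8 markers listed, 7 were tested and 3 called lower, beside 14.9% of all genes, namely DES, the muscle intermediate filament desmin (3.25 to 0.63 CPM, log2 difference -2.36 ± 0.22, adjusted p = 0.0002), LMOD1, leiomodin (-1.84 ± 0.34, adjusted p = 0.0040), and TAGLN, transgelin (32.3 to 20.3 CPM, -0.67 ± 0.12, adjusted p = 0.0040). By edgeR none was called higher, while DESeq2 called 1 higher and 3 lower. ACTA2 passed the test within the fold limit (-0.55 ± 0.10, adjusted p = 0.0043), and 4 markers were called lower without vehicle replicate 3, ACTA2 among them. MYH11, the myosin heavy chain of differentiated smooth muscle, had at most 1 count in any vehicle library and 7 to 10 counts in the TP-472 libraries. Of the markers of other cell types, CD3E had no count in any library and PTPRC at most 1. CD68, a lysosomal protein abundant in macrophages and found in other cells too, was the most abundant of the immune markers, at 7.53 ± 0.57 CPM in vehicle and 10.4 ± 1.48 CPM in TP-472 libraries, with the groups apart and the test passed within the fold limit (log2 difference 0.47 ± 0.14, adjusted p = 0.031). The endothelial genes lay under the filter, with more counts in the TP-472 libraries. CDH5 had 0 counts in the vehicle and 2 to 3 in the TP-472 libraries, PECAM1 at most 1 and 4 to 9, and VWF 2 to 4 and 5 to 10. DESeq2 called 1 of these genes higher. The 5 epithelial markers summed to 17.5, 18.3, 23.1 and 18.9 CPM in the vehicle libraries and 24.4, 26.8, 24.7 and 20.4 CPM in the TP-472 libraries, mostly from the keratins KRT18, called higher, and KRT19, called lower, with EPCAM and CDH1 under the filter. The part of these marker shifts in the synthetase results was not tested.

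With TP-472, 6 of the 37 synthetase genes were called higher and 0 lower by edgeR. At an unadjusted p-value under 0.05, 12 were higher and 5 lower. DESeq2 called 6 higher and 0 lower, and limma-voom with quality weights 2 higher and 0 lower. The cytosolic genes called higher by edgeR were RARS1, TARS1, KARS1 and FARSB, and the mitochondrial ones were MARS2 and YARS2. Of these, limma-voom called MARS2 alone, and its other call was FARSA (log2 difference 0.77, adjusted p = 1.3e-07). AARS2 was called lower in 9 of 17 other settings of the analysis. Over all genes tested, 12.0% were called higher and 14.9% lower, 26.9% in all. The 4 of 20 cytosolic genes and 2 of 17 mitochondrial genes called higher are read against these shares, and neither count was tested against them. By the adjusted p-value alone, 9 of the 37 were higher and 4 lower, where the background was 17.2% and 19.1%. The median difference was 0.27 for the cytosolic genes (range -0.45 to 0.78) and 0.01 for the mitochondrial genes (range -0.58 to 1.52), beside -0.03 for all genes tested. All TP-472 libraries lay above all vehicle libraries in 12 of the 37 genes and below them in 5, while 45.4% of all genes tested had groups that did not overlap. Without vehicle replicate 3, the genes called were FARSA and MARS2, the medians were 0.19 and 0.01, and 12.0% of all genes were called higher and 13.4% lower. By the adjusted p-value alone, 14 of the 37 were then higher and 6 lower, beside 28.6% and 28.4% of all genes.

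**Figure D1:**
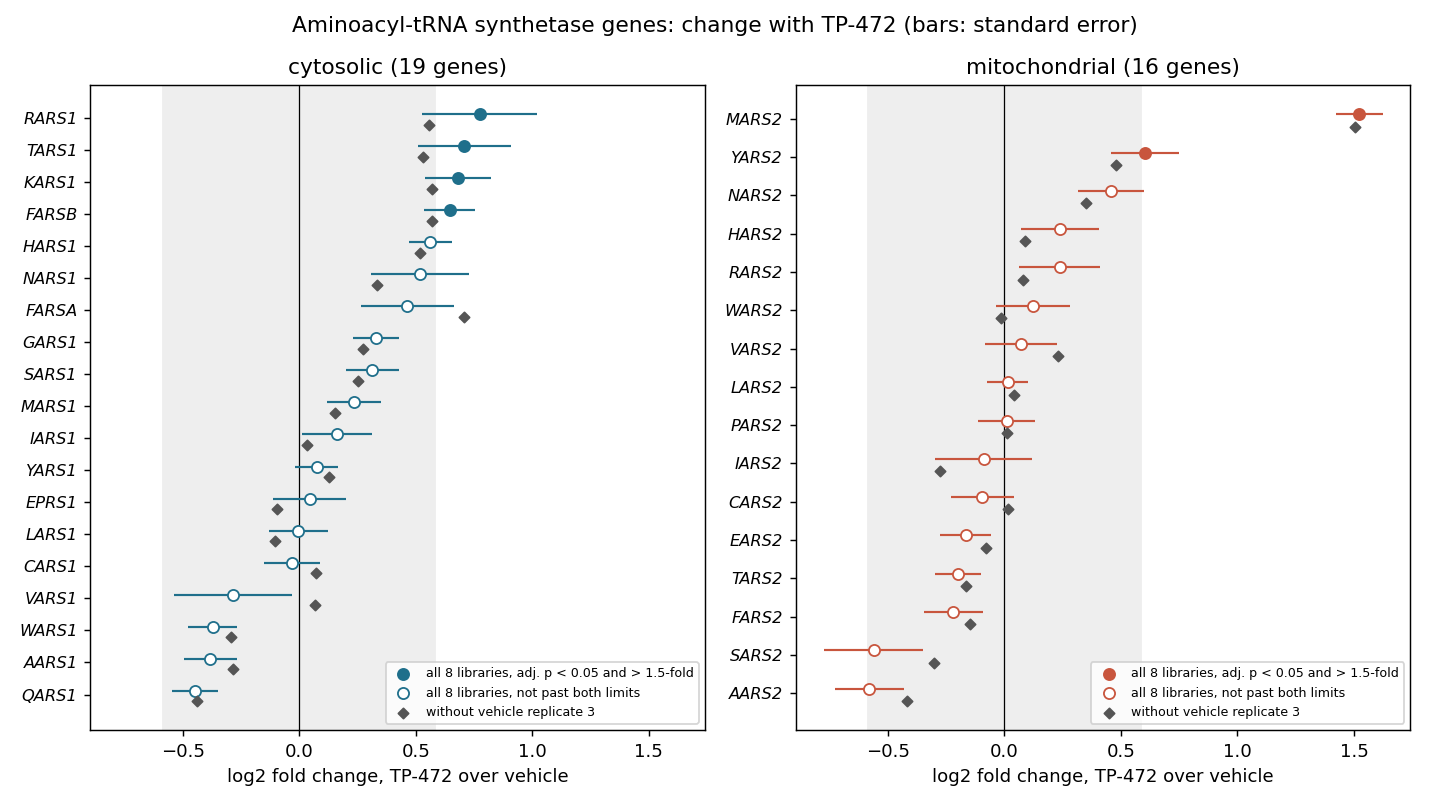
Log2 fold change of TP-472 over vehicle for 19 of the 20 cytosolic genes (left) and 16 of the 17 mitochondrial genes (right), with bars for the standard error; filled circles mark genes called and grey diamonds the value without vehicle replicate 3. MARS2, at 1.52, lies far to the right of the other genes shown, and the diamonds of RARS1, TARS1, KARS1, FARSB and YARS2 lie inside the grey band that marks changes of at most 1.5-fold.

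MARS2 encodes the methionyl-tRNA synthetase of the mitochondrion, which charges the tRNA used both to start and to lengthen mitochondrial proteins. The gene lies on chromosome 2 from 197705369 to 197708387 on the plus strand (GRCh38) and is annotated with 1 exon. Its level was 11.1, 11.3, 10.7 and 11.2 CPM in vehicle replicates 1 to 4 and 29.8, 31.4, 31.6 and 34.3 CPM in TP-472 replicates 1 to 4. The groups were far from overlapping, and vehicle replicate 3 lay close to the other vehicle libraries. The mean rose from 11.1 ± 0.27 to 31.8 ± 1.86 CPM (SD, n = 4 each), a log2 difference of 1.52 ± 0.10 (SE) or 2.87-fold (edgeR, adjusted p = 4.0e-05). Without vehicle replicate 3 the log2 difference was 1.51, and the call held in 17 of 17 other settings of the analysis. Among the 14073 genes tested, MARS2 ranked 237th from the highest log2 fold change. An annotated non-coding gene, AC011997.1, covers the same bases on the same strand and had a mean of 0.25 counts per library.

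The 250 bases before the annotated start of MARS2 are shown because this gene had the largest difference among the synthetases. They lie at chr2:197705119-197705368 on the plus strand (RefSeq, GRCh38.p14), and 70.4% of them are G or C. Capitals mark CACGTG, the E-box hexamer, which reads the same on both strands and begins 11 bases before the start.
MARS2: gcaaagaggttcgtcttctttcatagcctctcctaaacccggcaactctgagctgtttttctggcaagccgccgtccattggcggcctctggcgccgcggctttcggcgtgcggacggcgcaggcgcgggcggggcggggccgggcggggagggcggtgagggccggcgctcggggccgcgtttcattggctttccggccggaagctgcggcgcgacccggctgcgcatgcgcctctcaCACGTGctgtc
The presence of the hexamer is a description of the sequence. It was found in the window from 250 bases before to 50 bases after the start in 8.77% of all 27305 genes with an entry.

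YARS2 encodes the mitochondrial tyrosyl-tRNA synthetase. YARS2 RNA was at 27.3, 28.9, 19.5 and 30.8 CPM in the vehicle libraries and 40.5, 40.2, 42.2 and 38.9 CPM in the TP-472 libraries. No TP-472 library was as low as any vehicle library, and vehicle replicate 3 was the lowest. The log2 difference was 0.60 ± 0.15 (SE; edgeR, adjusted p = 0.013), or 1.52-fold, only just past the fold limit. It was under the fold limit when vehicle replicate 3 was left out (0.48, adjusted p = 0.0002) and when TP-472 replicate 3 was left out (0.58, adjusted p = 0.043). On the opposite strand, DNM1L, which encodes a mitochondrial fission protein, overlaps the span of YARS2 over 18161 bases, introns included, and had a mean of 6108 counts per library beside 1218 for YARS2.

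Among the other 15 mitochondrial genes, NARS2, the asparaginyl-tRNA synthetase, was higher by 0.46 ± 0.14 (adjusted p = 0.034) and AARS2, the alanyl-tRNA synthetase, was lower, both within the fold limit. NARS2 did not pass the test without vehicle replicate 1 (adjusted p = 0.067), without TP-472 replicate 1, 2, 3 or 4 (0.068, 0.078, 0.104 and 0.066), with the replicate number as a block (0.093) or with no filter on low counts (0.085). With all libraries, AARS2 had the lowest log2 fold change of the 37 members, but this rank was not firm. SARS2 was lower without vehicle replicate 1 or 2 or TP-472 replicate 2 or 3, and QARS1 was lower without vehicle replicate 3 and with limma-voom. With a trend in GC content removed, WARS1 (-0.323), QARS1 (-0.317) and AARS1 (-0.283) were all lower than AARS2. AARS2 stood at 42.9, 44.5, 63.5 and 42.1 CPM in the vehicle libraries and 33.5, 33.3, 31.1 and 31.4 CPM in the TP-472 libraries. All TP-472 libraries lay below all vehicle libraries, and vehicle replicate 3 was the highest by far. This was a log2 difference of -0.58 ± 0.15 (adjusted p = 0.016), a 1.49-fold decrease, just short of the fold limit. Leaving out vehicle replicate 3 brought it to -0.42 (adjusted p = 0.0003). Leaving out vehicle replicate 1, 2 or 4, or TP-472 replicate 1 or 2, instead took it past the limit, at -0.63, -0.62, -0.64, -0.60 and -0.59. In these fits AARS2 was called lower. The test was not passed without TP-472 replicate 3 (adjusted p = 0.052). With a trend in GC content removed from the counts, AARS2 differed by -0.27 (adjusted p = 0.018), and with limma-voom by -0.40. SARS2, the seryl-tRNA synthetase, differed by -0.56 ± 0.21 and did not pass the test with all libraries (adjusted p = 0.068). Leaving out vehicle replicate 3 gave -0.30, which passed it within the fold limit (adjusted p = 0.026). With the GC trend removed it was -0.17 and did not pass (adjusted p = 0.12). In the remaining 12 mitochondrial genes (among them HARS2, LARS2, PARS2, RARS2 and WARS2), the groups overlapped and none passed the test with all libraries. When vehicle replicate 3 was left out, IARS2 passed with a lower and VARS2 with a higher level, so that 4 of the 17 were higher and 3 lower by the adjusted p-value, beside 28.6% and 28.4% of all genes. Over the 17 mitochondrial genes, the groups were apart with TP-472 above in 3 and below in 2, where the background was 23.8% and 21.6%. Summed over the 17 genes, the vehicle libraries held 687, 741, 644 and 748 CPM and the TP-472 libraries 717, 731, 743 and 710 CPM, so the groups overlapped.

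**Figure D2:**
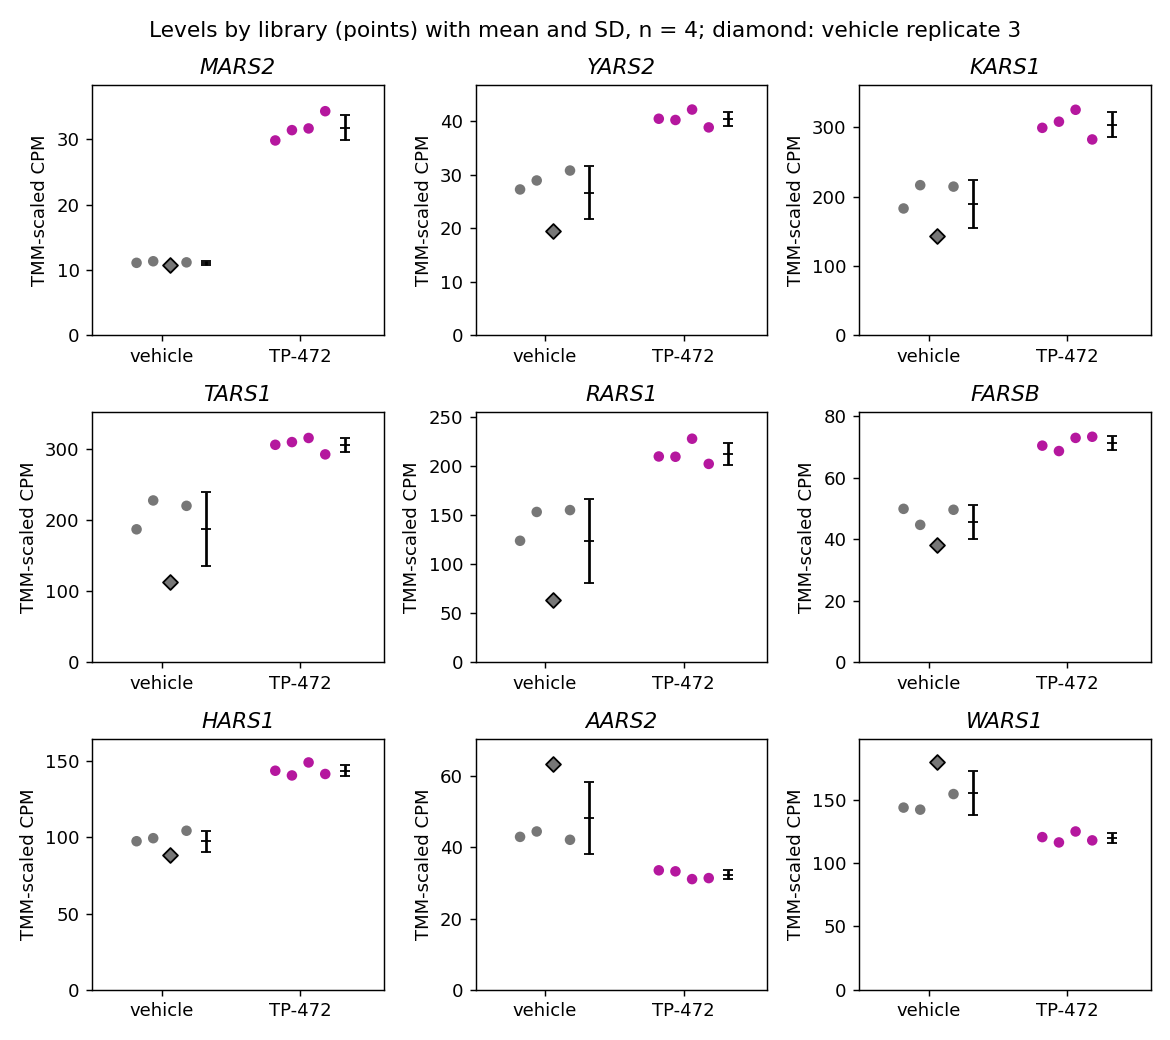
TMM-scaled CPM of 9 synthetase genes in each library, with the mean and SD of each group (n = 4) beside the points; the diamond marks vehicle replicate 3 and each axis starts at 0. MARS2 has tight groups at 11.1 and 31.8 CPM, while in RARS1 and TARS1 the diamond lies well under the other vehicle points and in AARS2 and WARS1 above them.

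Of the cytosolic genes, RARS1, TARS1, KARS1 and FARSB were called higher with TP-472. RARS1, which encodes the arginyl-tRNA synthetase of the multi-synthetase complex, stood at 124, 153, 63.8 and 155 CPM in the vehicle libraries and 210, 210, 228 and 202 CPM in the TP-472 libraries. The groups did not overlap, but vehicle replicate 3 was at 44.2% of the mean of the other vehicle libraries. RARS1 rose by 0.78 ± 0.25 on the log2 scale (SE; adjusted p = 0.037). Leaving out vehicle replicate 3 gave 0.56 (adjusted p = 0.0005), under the fold limit, and without vehicle replicate 1 or TP-472 replicate 1, 2, 3 or 4 the adjusted p-value was 0.081, 0.080, 0.080, 0.091 and 0.070. The call of RARS1 thus did not survive the loss of any of these 6 libraries.

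TARS1, the cytosolic threonyl-tRNA synthetase, behaved in the same manner. It stood at 187, 228, 114 and 220 CPM in the vehicle libraries and 306, 310, 316 and 293 CPM in the TP-472 libraries. The groups were apart and vehicle replicate 3 was again the lowest. TARS1 rose by 0.71 ± 0.20 on the log2 scale (adjusted p = 0.024), and by 0.53 without vehicle replicate 3 (adjusted p = 0.0004). The adjusted p-value was 0.057 without vehicle replicate 1 and 0.060, 0.061 and 0.063 without TP-472 replicate 1, 2 or 3.

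KARS1, the lysyl-tRNA synthetase of both compartments, had 183, 216, 144 and 214 CPM in the vehicle libraries and 299, 308, 325 and 282 CPM in the TP-472 libraries. Each TP-472 library was higher than each vehicle library. The rise was 0.68 ± 0.14 on the log2 scale (adjusted p = 0.0070), and 0.57 without vehicle replicate 3 (adjusted p = 0.0003), a 1.48-fold difference. FARSB, the beta subunit of the cytosolic phenylalanyl-tRNA synthetase, had 49.96, 44.8, 38.3 and 49.7 CPM in vehicle and 70.5, 68.7, 73.0 and 73.4 CPM with TP-472. Its groups were apart as well, by a log2 difference of 0.65 ± 0.11 (adjusted p = 0.0028), or 0.57 without vehicle replicate 3 (adjusted p = 6.4e-05).

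FARSA, the alpha subunit of the same enzyme, was at 57.2, 55.6, 97.7 and 55.7 CPM in the vehicle libraries and 94.2, 99.8, 96.4 and 77.0 CPM in the TP-472 libraries. Vehicle replicate 3 lay within the range of the TP-472 libraries, while the other vehicle libraries lay below it. With all libraries the log2 difference was 0.46 ± 0.20 (adjusted p = 0.096). Among the other 7 libraries it was 0.71 (adjusted p = 0.0001), past both limits.

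HARS1, the cytosolic histidyl-tRNA synthetase, and HARS2, its mitochondrial counterpart, are neighbours that are read in opposite directions on chromosome 5. RefSeq places their starts at 140691370 (minus strand) and 140691455 (plus strand) of GRCh38.p14, with 84 bases between them. Those bases, chr5:140691371-140691454, are shown on the plus strand because both genes start at their edges. No letters are in capitals, since neither CACGTG nor TGATGNAA occurs in them on either strand.
HARS1 and HARS2: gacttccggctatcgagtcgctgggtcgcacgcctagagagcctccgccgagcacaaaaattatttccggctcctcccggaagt

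HARS1 had 97.5, 99.5, 88.4 and 104 CPM in the vehicle libraries and 144, 141, 149 and 142 CPM in the TP-472 libraries. The groups were apart by a log2 difference of 0.56 ± 0.09 (adjusted p = 0.0023), or 1.48-fold, close under the fold limit. It was 0.52 without vehicle replicate 3 and 0.60 without vehicle replicate 4, which is past the limit. HARS2 had 45.5, 53.1, 30.8 and 52.5 CPM in vehicle and 54.6, 52.1, 55.5 and 52.3 CPM with TP-472, and its groups overlapped. The log2 difference was 0.24 ± 0.17 (adjusted p = 0.28), and 0.09 without vehicle replicate 3.

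The log2 ratio of HARS1 to HARS2 counts was 1.10, 0.91, 1.52 and 0.99 in the vehicle libraries and 1.397, 1.43, 1.43 and 1.44 in the TP-472 libraries. The means were 1.13 ± 0.27 and 1.42 ± 0.02 (SD, n = 4 each), and the highest value of all was that of vehicle replicate 3. The difference of 0.29 did not pass the exact two-sided permutation test over 70 assignments (p = 0.143, the smallest possible being 0.0286). Without vehicle replicate 3 the difference was 0.42 and all TP-472 values were above all vehicle values (exact two-sided permutation test over 35 assignments, p = 0.0286, the smallest possible there). The annotated genes overlap by 437 bases on opposite strands. Whether the counting used strand is not stated, so reads from the overlap may be split between them. HARS2 also overlaps ZMAT2 on the same strand over 639 bases, where strand does not separate the reads.

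Genes of further interest in the cytosolic set had smaller differences. GARS1, the glycyl-tRNA synthetase of both compartments, had 208, 201, 171 and 200 CPM in vehicle and 238, 241, 243 and 258 CPM with TP-472. Its groups were apart, with a log2 difference of 0.33 ± 0.10 (adjusted p = 0.030). GARS1 did not pass the test without vehicle replicate 2 or 4 (adjusted p = 0.051 and 0.055), without TP-472 replicate 1, 2, 3 or 4 (0.078, 0.074, 0.080 and 0.073), with the replicate block (0.106) or with no filter (0.154). EPRS1, a single protein that holds the glutamyl- and prolyl-tRNA synthetases, had 295, 327, 197 and 312 CPM in vehicle and 291, 291, 291 and 294 CPM with TP-472. Its log2 difference was 0.05 ± 0.16 (adjusted p = 0.84), and -0.09 without vehicle replicate 3, the library that lay lowest.

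The cytosolic genes that passed the test with a lower level were QARS1, AARS1 and WARS1, all within the fold limit. QARS1, the glutaminyl-tRNA synthetase, went from a mean of 148 ± 8.63 to 109 ± 8.02 CPM (SD, n = 4 each), a log2 difference of -0.45 ± 0.10 (adjusted p = 0.0086). It was -0.44 without vehicle replicate 3. AARS1, the alanyl-tRNA synthetase, differed by -0.38 ± 0.11 (adjusted p = 0.030), and by -0.28 without that library. AARS1 did not pass the test without vehicle replicate 1 (adjusted p = 0.053), without TP-472 replicate 1, 2, 3 or 4 (0.067, 0.083, 0.078 and 0.072), with the replicate block (0.088) or with no filter (0.076).

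WARS1, the tryptophanyl-tRNA synthetase, is known as an interferon-induced gene. It stood at 144, 142, 180 and 155 CPM in the vehicle libraries and 121, 116, 125 and 118 CPM in the TP-472 libraries. All TP-472 libraries lay below all vehicle libraries, with a log2 difference of -0.37 ± 0.11 (adjusted p = 0.024), and -0.29 without vehicle replicate 3 (adjusted p = 0.0021). WARS1 did not pass the test without TP-472 replicate 1, 2, 3 or 4 (adjusted p = 0.065, 0.076, 0.059 and 0.059), with the replicate block (0.078) or with no filter (0.072). Beside it, a list of 8 interferon-induced genes had 6 called lower and none higher, beside 14.9% and 12.0% of all genes, with a median of -1.08. When vehicle replicate 3 was left out, 7 of the 8 were called lower, with a median of -1.19, beside 13.4% of all genes. MX1, an antiviral GTPase, fell by 2.23 ± 0.11 on the log2 scale (adjusted p = 1.7e-05). IFIT1, ISG15 and IDO1 were also called lower, while IRF1 and GBP2 did not pass the test with all libraries. The difference of WARS1 was smaller than that of MX1, and the difference between the genes was not tested.

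**Figure D3:**
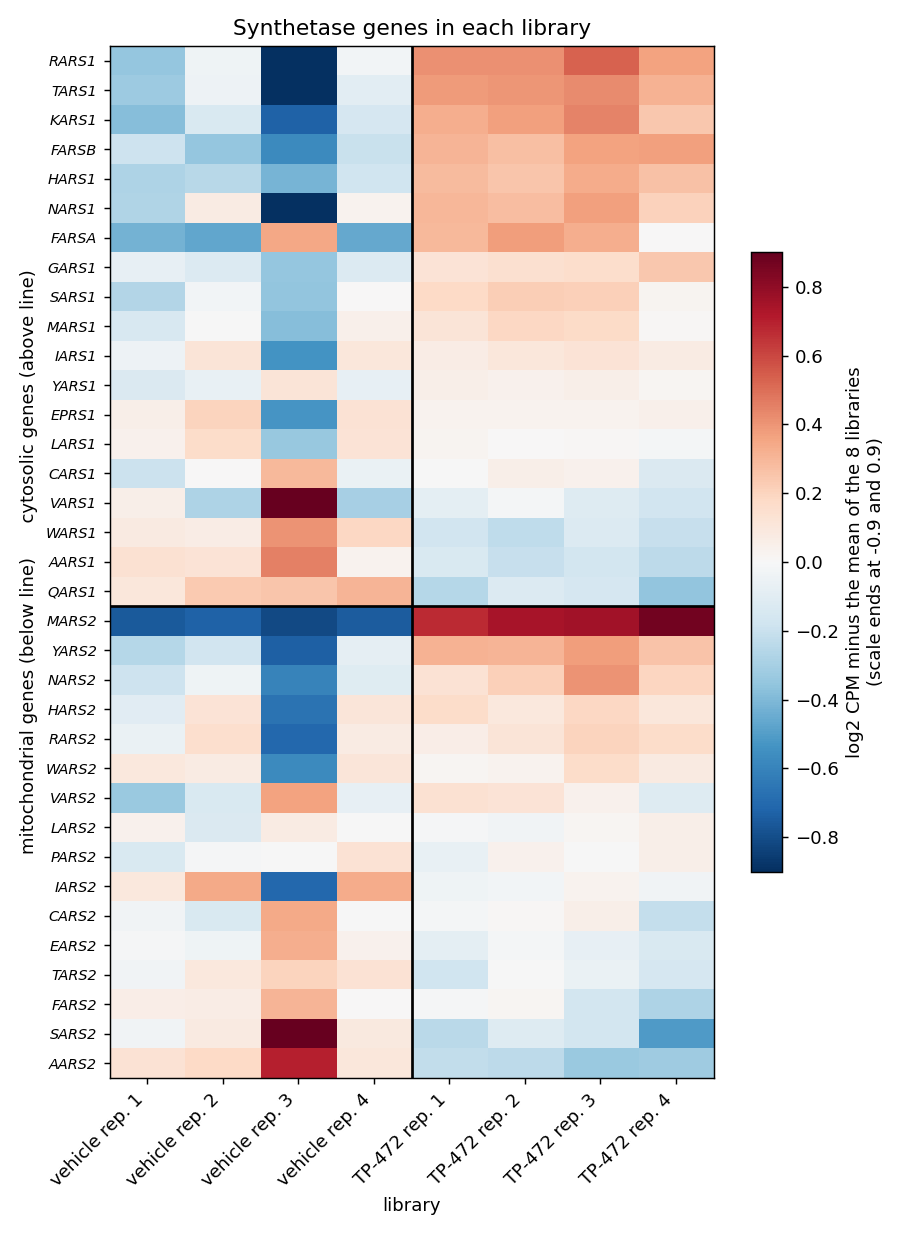
Log2 CPM of 35 of the 37 synthetase genes in each library, minus the mean of the 8 libraries, with cytosolic genes above the horizontal line and mitochondrial genes below it; red is above the mean and blue below, and the scale ends at -0.9 and 0.9. The column of vehicle replicate 3 holds the deepest blue and the deepest red of the vehicle group, while in MARS2 all vehicle libraries are blue and all TP-472 libraries red.

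The cytosolic genes were also set out by the class of the enzyme. Class II enzymes attach the amino acid through a catalytic domain built on an antiparallel sheet, class I enzymes through a Rossmann fold. Of the 10 cytosolic class II genes (among them FARSB, GARS1, HARS1, KARS1 and TARS1), 9 had a positive log2 fold change, 5 passed the test with a higher level and 1 with a lower level, beside 17.2% and 19.1% of all genes, and 3 were called higher, beside 12.0%. Without TP-472 replicate 1, 2 or 3, the number that passed with a higher level was 3 and none passed with a lower level. Calls over all genes fell too in these fits, from 3789 to 2852, 2734 and 2690. In 8 of the 10, all TP-472 libraries lay above all vehicle libraries, beside 23.8% of all genes tested, and the median was 0.49. In the fit without vehicle replicate 3, 9 of the 10 passed the test with a higher level, where the background was 28.6%, 1 was called and the median was 0.43. NARS1, the asparaginyl-tRNA synthetase (0.52 ± 0.21, adjusted p = 0.080) and SARS1, the seryl-tRNA synthetase (0.31 ± 0.11, adjusted p = 0.057) were apart between groups without passing the test. AARS1 was the exception in the class.

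Of the 9 cytosolic class I genes (CARS1, IARS1, LARS1, MARS1, QARS1, RARS1, VARS1, WARS1 and YARS1), 4 had a positive and 5 a negative log2 fold change, with 1 called higher and none lower, beside 12.0% and 14.9% of all genes. By the adjusted p-value alone, 1 was higher and 2 were lower, beside 17.2% and 19.1% of all genes. Without vehicle replicate 3, with limma-voom and with the GC trend removed, 6 of the 9 were positive. In the fit without that library, 1 was higher and 2 lower by the adjusted p-value, beside 28.6% and 28.4% of all genes. None was called in that fit, beside 12.0% of all genes called higher and 13.4% lower. Their median was -0.00, and 0.07 without vehicle replicate 3. The median GC content of the longest transcript was 51.9% for class I and 46.7% for class II, a difference that bears on vehicle replicate 3 as described further on. The class II median stayed between 0.38 and 0.56 in the other settings tried, with 9 of 10 positive in each. In the mitochondrion the classes did not show the same counts, as 6 of 9 class I genes and 4 of 8 class II genes had a positive log2 fold change. The difference between classes was not tested.

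The multi-synthetase complex holds 8 of the cytosolic genes (among them EPRS1, KARS1, MARS1, QARS1 and RARS1). Of these, 2 were called higher and none lower, beside 12.0% and 14.9% of all genes, and the log2 fold changes had a median of 0.20, or 0.10 without vehicle replicate 3, when none was called. The 12 cytosolic genes outside the complex had a higher median, 0.32, with 2 called higher and 0 lower. Without vehicle replicate 3 their median was 0.26, with 1 called. The difference between these groups of genes was not tested. The 3 scaffold genes AIMP1, AIMP2 and EEF1E1 all had positive values. EEF1E1, also known as AIMP3, was called, with 27.0, 37.4, 12.48 and 35.7 CPM in vehicle and 62.6, 62.1, 67.6 and 57.0 CPM with TP-472. Its groups were apart, and vehicle replicate 3 was the lowest. It rose by 1.15 ± 0.29 on the log2 scale (adjusted p = 0.016), and by 0.90 without vehicle replicate 3, still past both limits. AIMP2 differed by 0.40 ± 0.13 (adjusted p = 0.039) and AIMP1 by 0.39 ± 0.23 (adjusted p = 0.21).

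Genes that act on the charged tRNA after the synthetase were examined in lists of a few genes each, so that counts of 0 called lie close to the 12.0% called higher and 14.9% called lower of all genes and are not a result about them. Of the 5 genes of the cytosolic elongation factor 1 complex, 0 were called by edgeR, DESeq2 or limma-voom, with 1 lower at an unadjusted p-value under 0.05, and EEF1A1, the factor that carries charged tRNA to the ribosome, differed by 0.21 ± 0.22 (adjusted p = 0.47). Its mitochondrial counterpart TUFM differed by 0.37 ± 0.15 (adjusted p = 0.074), and by 0.27 without vehicle replicate 3, which passed the test (adjusted p = 0.044). Of the 4 genes for the amidation and formylation of charged mitochondrial tRNA, 0 were called by these tools, with 1, GATC, higher at an unadjusted p-value under 0.05. GATC differed by 0.34 ± 0.14 (adjusted p = 0.076), and by 0.23 without vehicle replicate 3, which passed the test (adjusted p = 0.016). GATB differed by -0.11 ± 0.12 (adjusted p = 0.46). The formylase MTFMT, which acts on the methionyl-tRNA that MARS2 makes, differed by 0.22 ± 0.10 (adjusted p = 0.13), and likewise by 0.22 without that library, which passed (adjusted p = 0.036). The passes of TUFM, GATC and MTFMT without vehicle replicate 3 stand beside 28.6% of all genes that passed with a higher level in that fit, and 28.4% with a lower level. Among 6 related genes outside the rule, TARS3, a second threonyl-tRNA synthetase gene of the cytosol, passed the test within the fold limit (0.34 ± 0.11, adjusted p = 0.039). It was also the only one of them under 0.05 by the unadjusted p-value, and 0 were called by the 3 tools.

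The amino acid response was examined because ATF4 is known to act on many cytosolic synthetase genes. Of 22 genes in a list of this response, 1 was called higher and 1 lower, beside 12.0% and 14.9% of all genes, and the median was 0.17. ATF4 itself stood at 196, 252, 183 and 254 CPM in vehicle and 301, 321, 318 and 271 CPM with TP-472. The groups were apart, by a log2 difference of 0.45 ± 0.14 (adjusted p = 0.031) that lay within the fold limit. ATF3, a stress-induced transcription factor, rose from 6.75 ± 0.78 to 21.1 ± 1.53 CPM (SD, n = 4 each; log2 difference 1.64 ± 0.13, adjusted p = 8.4e-05). NUPR1 fell by 1.72 ± 0.28 on the log2 scale from a low level of 1.501 CPM (adjusted p = 0.0022). ASNS, the asparagine synthetase often used as a readout of ATF4, stood at 76.7 ± 17.5 and 85.3 ± 2.31 CPM (log2 difference 0.15 ± 0.17, adjusted p = 0.49). In the fit without vehicle replicate 3, CEBPB, DDIT3, SESN2 and TRIB3 were added to ATF3, so that 5 were called higher and 1 lower, beside 12.0% and 13.4% of all genes. By the adjusted p-value alone, 10 were higher and 3 lower in that fit, beside 28.6% and 28.4% of all genes. Those lower were NUPR1 and, within the fold limit, PHGDH (-0.29, adjusted p = 0.0048) and SLC7A11 (-0.32, adjusted p = 0.0034).

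The cytosolic synthetase genes were also divided into those generally held to be ATF4 targets and the others. Among the 13 genes so listed (AARS1, CARS1, EPRS1, GARS1, IARS1, LARS1, MARS1, NARS1, SARS1, TARS1, VARS1, WARS1 and YARS1), 8 had a positive log2 fold change and 1, TARS1, was called, with a median of 0.08. Among the other 7 (such as FARSB, HARS1, KARS1 and RARS1), 6 were positive and 3 called, with a median of 0.56. Over all genes tested, 12.0% were called higher. Leaving out vehicle replicate 3 gave medians of 0.07 and 0.56, with 0 and 1 genes called. The difference between these groups was not tested.

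The genomic sequence around the starts was searched for the core of the CARE element that ATF4 binds, TGATGNAA on both strands, and for CACGTG. RefSeq promoters of 250 bases before to 50 bases after the start (GRCh38.p14) were at hand for 30 of the 37 members, 16 cytosolic and 14 mitochondrial. These members had 39 promoter entries, since a gene can have several starts. A gene was counted when any of its entries held the motif. The number of entries per gene was not matched between the members and all genes. TGATGNAA was found in 8 of the 30 (26.7%), namely 7 cytosolic genes and YARS2, and in 4.46% of all 27305 genes with an entry. CACGTG was found in 4 of the 30 (13.3%), CARS2, EARS2, IARS1 and MARS2, and in 8.77% of all genes. With only the 150 bases before the start, 2 members held each motif (6.67%), beside 2.37% and 5.64% of all genes. The matches of the 7 cytosolic genes are shown with 10 bases on either side, on the strand of the gene, with the match in capitals, because 5 of them lie within 14 bases of the start and share the letters TTGCATCA or their reverse complement.
AARS1 (chr16:70289676-70289703, minus strand): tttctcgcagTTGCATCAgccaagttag
CARS1 (chr11:3057408-3057435, minus strand): ggggcggcggTTGCATCAgattctagga
GARS1 (chr7:30594835-30594862, plus strand): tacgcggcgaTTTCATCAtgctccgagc
IARS1 (chr9:92293693-92293720, minus strand): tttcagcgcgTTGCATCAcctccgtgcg
MARS1 (chr12:57488054-57488081, plus strand): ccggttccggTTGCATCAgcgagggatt
NARS1 (chr18:57621805-57621832, minus strand): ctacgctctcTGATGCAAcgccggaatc
TARS1 (chr5:33440957-33440984, plus strand): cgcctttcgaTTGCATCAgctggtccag
Of these 7 genes, TARS1 was called higher, GARS1 passed the test with a higher level and AARS1 with a lower level in the fit of all 8 libraries. NARS1 and MARS1, at 0.52 and 0.24 ± 0.12 (adjusted p = 0.14), did not pass. CARS1 and IARS1 did not pass either, at -0.03 ± 0.12 (adjusted p = 0.86) and 0.16 ± 0.15 (adjusted p = 0.40). Of the other genes called higher, YARS2 held a match to TGATGNAA, while RARS1, KARS1, FARSB and MARS2 had none in this window. A match is a run of letters and says nothing of what binds there.

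**Figure D4:**
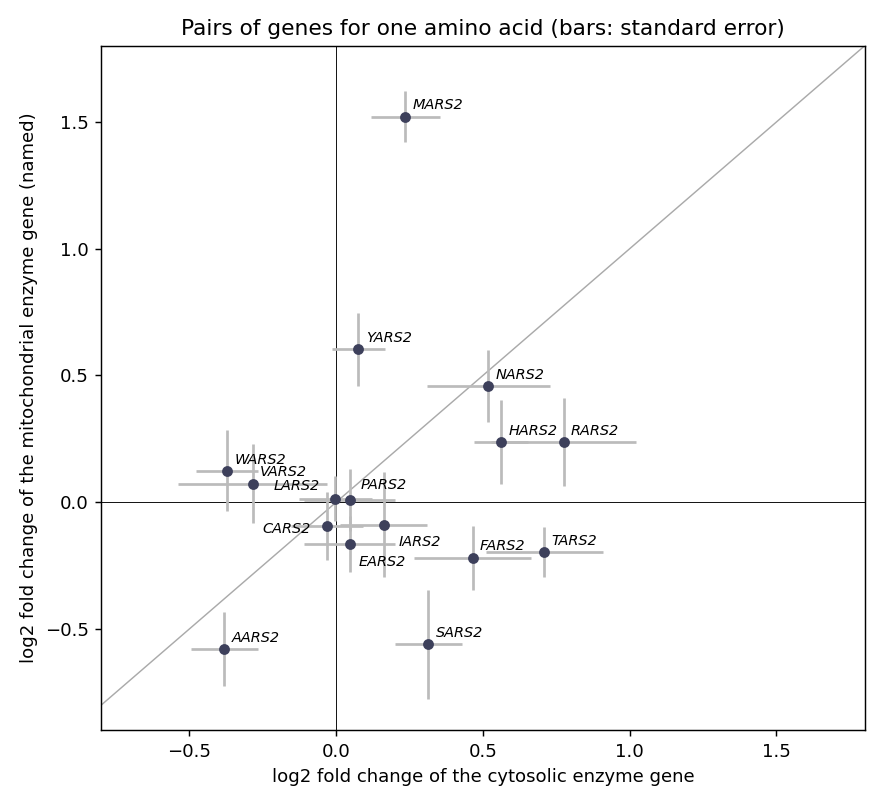
Log2 fold change of the mitochondrial gene (vertical) against that of the cytosolic gene for the same amino acid (horizontal) in 16 of the 17 pairs, with bars for the standard error; the diagonal marks equal values, each point carries the name of the mitochondrial gene, FARSA stands for the cytosolic phenylalanine enzyme and EPRS1 is used for both EARS2 and PARS2. MARS2 lies highest above the diagonal, and TARS2 and SARS2 lie farthest below it.

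Cytosolic and mitochondrial genes for the same amino acid were set side by side in 17 pairs. In 9 pairs both genes had the same sign. The cytosolic gene had the higher log2 fold change in 12 pairs, and in 9 without vehicle replicate 3. Within each library, the log2 ratio of the cytosolic to the mitochondrial gene was higher in all TP-472 libraries than in all vehicle libraries in 6 pairs, such as those for phenylalanine, arginine, serine and threonine, and lower in 3, for methionine, tryptophan and tyrosine. Of all single genes tested, 23.8% had groups apart with TP-472 above and 21.6% below. The share among ratios of other gene pairs was not computed, so these counts are not a result about the pairs. The widest difference of the 17 was that of methionine, where MARS1 minus MARS2 was -1.29, and -1.35 without vehicle replicate 3. MARS1, the cytosolic gene, had a log2 difference of 0.24 against 1.52 for MARS2. For threonine the difference of the log2 fold changes was 0.91, and 0.69 without vehicle replicate 3, and for serine 0.88 and 0.55. These differences were not tested.

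**Figure D5:**
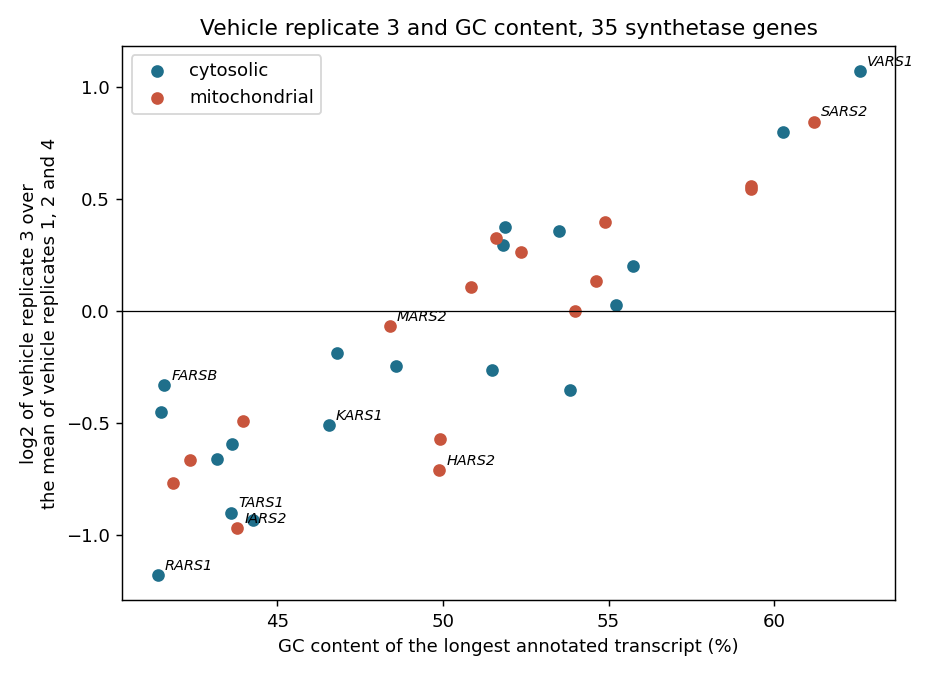
Log2 ratio of vehicle replicate 3 to the mean of vehicle replicates 1, 2 and 4 (vertical) against the GC content of the longest annotated transcript in percent (horizontal) for 35 of the 37 genes, with cytosolic and mitochondrial genes in different colours. Genes low in GC lie below 0, such as RARS1, and genes high in GC lie above it, such as VARS1 and SARS2, with MARS2 near 0.

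Vehicle replicate 3 deviated from the other vehicle libraries in step with the GC content of the transcript. Across the 37 genes, which are not independent of each other and share the libraries, Pearson's r was 0.89 and Spearman's rho 0.86. All 19 genes under 50% GC were below the mean of the other vehicle libraries in it, and 15 of the 18 others were above. RARS1, with 41.4% GC, stood at 44.2% of that mean, while VARS1, SARS2 and FARSA, with 62.6%, 61.2% and 60.3% GC, stood at 210%, 180% and 174%. MARS2 has 48.4% GC. Across the 37 genes, the correlation of the log2 fold change with GC content was -0.51 (Spearman's rho -0.57), and -0.25 (rho -0.29) without this library. When a trend in GC content was removed from the counts, the cytosolic genes had a median of 0.30 and the mitochondrial genes one of 0.03, and the medians were 0.46 for the cytosolic class II and 0.06 for the class I genes.

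VARS1, the valyl-tRNA synthetase, is an example of a gene high in GC, with 96.9, 77.0, 175 and 75.9 CPM in the vehicle libraries and 87.7, 92.3, 86.0 and 82.9 CPM in the TP-472 libraries. Its log2 difference was -0.28 ± 0.25 (adjusted p = 0.40) with all libraries and 0.07 (adjusted p = 0.55) without vehicle replicate 3, so its sign depended on that library. Summed over the 20 cytosolic genes, the vehicle libraries held 3386, 3719, 2976 and 3690 CPM and the TP-472 libraries 4012, 4051, 4136 and 3876 CPM. Vehicle replicate 3 was the lowest, and the groups were apart also among the other 7 libraries. It was the lowest vehicle library for 13 and the highest for 6 of the 20 cytosolic genes.

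Of 14 listed pseudogenes of the synthetases, 13 had no count in any library, and the highest count of the other was 3. Several members overlap other genes on the opposite strand, among them MARS1 with DDIT3 over 982 bases and KARS1 with TERF2IP over 858 bases. On the same strand, HARS2 overlaps ZMAT2 over 639 bases and VARS2 overlaps GTF2H4 over 5865 bases, introns included. ZMAT2 and GTF2H4 had means of 2248 and 826 counts per library, beside 1795 for HARS2 and 1636 for VARS2. All these shared stretches could carry reads of either gene.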

How the data were processed

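RNA of SK-UT-1 cells treated with vehicle or TP-472 (4 libraries each) was measured by strand-specific total RNA sequencing. The authors checked read quality after mapping with STAR, quantified transcripts with Salmon 1.4.0 on GRCh38, and added these up per gene with tximport and GENCODE. The deposited values are therefore estimated counts per gene, neither normalized nor filtered. They were rounded to whole numbers. The filter asked for over 1 CPM in 4 or more of the 8 libraries. After TMM scaling, edgeR 4.0.16 (R 4.3.3) was run with its quasi-likelihood F test and no covariate, since the labels name no batch, and log2 CPM used a prior count of 2. The calculation was tested on simulated data.

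Library totals leave little counting error at these levels, so the spread between libraries limits the precision. No library was a copy of another (lowest mean chi-square 12.8, where copies would be near 1).

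The members and gene lists were chosen with earlier results of these data known. Values in every library are given for called members, the member with the largest fall, WARS1, EPRS1, GARS1, KARS1, HARS1 and HARS2, and other members where a sentence is about their group. VARS1 and FARSA, and the library values of EEF1E1 and ATF4, were added after the values were seen. Lists were described by counts and medians. A few genes are neither named nor plotted here, but counts, sums and medians include them. Coordinates and GC content came from GENCODE release 29 (GRCh38), joined by gene identifier without version, and promoters from RefSeq (GRCh38.p14), where 7 members had no match. Protein sequences were not compared here.

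Alternatives were DESeq2 1.42.0, limma-voom (limma 3.58.1) with quality weights, scaling by RLE, by the upper quartile or by library totals, other filters, no fold limit, the replicate number as a block, and each library left out. Removal of a trend in GC content (span 0.3) was added after the data were seen.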

Additional observations from a re-analysis of the deposited data

Results flagged for a closer look

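Within each group of 4 libraries, the distance of the highest or lowest library from its nearest neighbour was compared with the range of the group for all 37 synthetase genes. Of the 74 groups examined, 4 had a library farther out than Dixon's limit at the 95% level, where chance alone gives about 1 in 20. All 4 were in vehicle replicate 3. In FARSA it was the highest vehicle library at 97.7 CPM, with the nearest at 57.2 CPM. AARS2 stood at 63.5 CPM there, with the nearest at 44.5 CPM, and SARS2 at 40.1 CPM, with the nearest at 23.0 CPM. In WARS2 it was the lowest, at 14.1 CPM, with the nearest at 22.0 CPM.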

How the results depend on the processing

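MARS2 was called under every alternative run, with log2 fold changes of 1.47 to 1.54. The number of cytosolic genes called (4) was 1 with limma-voom and quality weights, 9 with no fold limit, and 1 to 5 when a library was left out. The number of mitochondrial genes called (2) was 1 with limma-voom, 4 with no fold limit, and 1 to 3 when a library was left out. It was 1 without vehicle replicate 3 (MARS2) and 1 without TP-472 replicate 3. Where it was 3 without a library, 1 of the 3 was AARS2, called lower. The cytosolic median kept its sign, at 0.19 to 0.32 without single libraries. The mitochondrial median (0.01) was -0.015 with limma-voom, -0.0074 with upper-quartile scaling, -0.019 with library totals, -0.0052 with the filter at 5 CPM, and between -0.019 (without vehicle replicate 1) and 0.056 (without vehicle replicate 4) without single libraries. Its sign was thus not settled. EPRS1 changed sign to -0.12 with limma-voom, -0.064 with the GC trend removed and -0.094 without vehicle replicate 3, and was at most 0.12 without other libraries. VARS1 changed sign to 0.19, 0.18 and 0.066, and its lowest value was -0.42, without vehicle replicate 4. With the GC trend removed, which was chosen after seeing the data, 4 cytosolic and 2 mitochondrial genes were called, with FARSA at 0.83 called and FARSB at 0.49 not. With limma-voom, RARS1, TARS1, KARS1, FARSB and YARS2 were at 0.49, 0.49, 0.53, 0.56 and 0.44, under the fold limit, and YARS2 was under it also with upper-quartile scaling and library totals (both 0.58). AARS2 was called lower with RLE (-0.59), upper-quartile (-0.60) and total-count scaling (-0.62) and the filter at 5 CPM (-0.60). It was at -0.27 with the GC trend removed and -0.40 with limma-voom. Of the genes in the surrounding lists, 9 were called, 15 with no fold limit, 14 with the GC trend removed, and 9 to 14 without single libraries, the 14 without vehicle replicate 3. The HARS1 to HARS2 ratio differed by 0.42 without vehicle replicate 3, the library with the highest ratio, and by 0.22 to 0.30 without other libraries. Only without vehicle replicate 3 was the exact permutation test passed, at the smallest p-value it can give (0.0286). The cause of these differences was not tested. The share of promoters with TGATGNAA went from 26.7% to 6.67% with the 150 bases before the start, a window that is shorter and also leaves out the bases after the start. AARS1 and YARS2 were lost because their matches lie farther upstream, and CARS1, MARS1, NARS1 and TARS1 because theirs reach or follow the start. Over all genes, 3789 were called, 5575 by DESeq2 and 2690 to 4223 without single libraries. The median of all genes was 0.13 with DESeq2 and 0.12 with no filter, which keep more genes of low counts.

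Replicate numbers were shared by the groups, but only 1 of 4 correlations of same-numbered libraries exceeded 0.1, and 1 library correlated best with its own number, so the numbers do not show pairing. With the replicate number as a block, 3055 genes were called, among them 3 cytosolic synthetase genes (RARS1 at 0.85, adjusted p = 0.054, was not) and 2 mitochondrial ones. The blocked cytosolic and mitochondrial medians were 0.28 and 0.02, and the HARS ratio difference was 0.29 (exact permutation p = 0.25 over 16 assignments).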
